A study of Mus musculus with 3 samples.

Results

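Long noncoding RNA genes that were well expressed in mouse visceral adipose fibroblasts are described here, across a vehicle library, an oncostatin M (Osm) library and a TGF-beta1 library. They were chosen as the genes that the authors' table gives the biotype lncRNA and that reached a raw count of 200 in at least 1 library. The rule took 84 of the 11288 lncRNA genes in the table, of which 4048 had any count. The measured counts chose the members, so their levels are a description. Of the 84 genes, 54 reached the minimum in all 3 libraries, 13 in 2 of them, 8 with vehicle alone, 2 with Osm alone and 7 with TGF-beta1 alone. A member that passed in 1 library alone is by construction high there. With Osm alone these were Gm14493 and Gm49227. With TGF-beta1 alone they were Gm32255, D030025P21Rik, Gm38403, Snhg12, Snhg5, Gm17501 and 6530402F18Rik, and those that passed with vehicle alone included A730020M07Rik and ENSMUSG00000121137. Just inside the minimum lay Gm14493 with counts of 144, 206 and 102 (vehicle, Osm, TGF-beta1), 4933431E20Rik with 208, 187 and 139, and Gt(ROSA)26Sor with 209, 185 and 201. Just outside lay ENSMUSG00000121225 with 199, 173 and 173, A830082K12Rik with 150, 151 and 195, and 2610507I01Rik with 160, 160 and 194.

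The fibroblasts were isolated from the stromal vascular fraction of visceral fat of high-fat diet-fed wild-type mice, and were kept as the magnetically sorted fraction negative for CD45, CD31 and Ter119. They are therefore a mixture defined by what it lacks, and no label says how many mice or cultures went into a library. One library came from cells given vehicle, for which no time is stated. Another came from cells given recombinant mouse Osm at 3 ng/mL for 24 h, and the third from cells given recombinant human TGF-beta1 at 3 ng/mL for 24 h. With 1 library per condition there is no error between cultures, no p-value, and no way to tell a treatment from other differences between libraries. Both comparisons with vehicle share the vehicle library. Totals were 18336068, 17319872 and 18533741 counts (vehicle, Osm, TGF-beta1). All 8 fibroblast markers, Pdgfra and Col1a1 among them, were detected, with summed levels of 13812, 12879 and 16894 CPM (counts relative to library size). The 8 leukocyte markers summed to 14.7 to 18.5 CPM, nearly all of it Cd68, at 164, 116 and 68 counts and 2.44-fold lower with TGF-beta1 than with vehicle, and Csf1r, at 156, 146 and 188 counts. Itgam and Cd3e were at 0 and Ptprc, which encodes CD45, had at most 2 counts. The 6 endothelial markers summed to 36.1 to 50.6 CPM, nearly all of it Tek, and Pecam1, which encodes CD31, had at most 5 counts. The 5 erythroid and 5 adipocyte markers summed to under 1 CPM each. The 6 mural cell markers summed to 45.3, 42.8 and 112 CPM, and this list was highest in the TGF-beta1 library through Cspg4, with 157, 128 and 1380 counts. Of the other mural markers, Des, at 415, 352 and 539 counts, and Kcnj8, at 2, 5 and 6, were also highest there, while Myh11, at 172, 148 and 121, Abcc9, at 79, 105 and 32, and Rgs5, at 6, 3 and 3, were not. The part of these other cells in the ratios below was not tested. The 5 mesothelial markers lay at 39.6 to 47.7 CPM and the 5 Schwann cell markers at 11.2 to 12.4 CPM. In bulk samples, fewer cells of a type and less RNA per cell cannot be told apart.

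Long noncoding RNAs are transcripts without a long open reading frame. Some act in the nucleus as scaffolds, such as Neat1 in paraspeckles. Others are precursors from whose introns or exons small nucleolar RNAs (snoRNAs) or microRNAs are cut, and many annotated ones lie on the strand opposite a protein-coding gene, where little is known of a function. Osm acts on cells by way of gp130 and Stat3. TGF-beta1 acts by way of receptor kinases and Smad proteins, and drives fibroblasts towards contractile, matrix-producing myofibroblasts.

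By the table's coordinates (mm39), 41 members overlapped no protein-coding gene, 37 overlapped one on the opposite strand and 6 overlapped one on their own strand. A snoRNA gene lay inside 12 of the members and a microRNA gene inside 6. Of the 41 members without overlap, 8 started head to head within 1000 bases of a protein-coding gene. Members that overlap a coding gene were not sorted in this way. Gene lengths ran from 297 to 31981 bases with a median of 3043, and the members lay on 20 chromosomes. Of the 84 genes, 56 carry only a predicted symbol, a clone name or an Ensembl identifier. The strand setting of the libraries and of the read counter was not given in the sources used here. Without it, reads of a gene and of the gene opposite cannot be separated.

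The microRNA hosts are shown first by what they carry. RefSeq (build GRCm38.p6) gave mature sequences for 12 of the 13 microRNA genes inside members, 22 sequences in all, and no pair of them shared a seed. The sequences below belong to the hosts whose levels are described further on. Capitals mark the seed, bases 2 to 8 from the 5′ end.
mmu-miR-199a-5p (Dnm3os): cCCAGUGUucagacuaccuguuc
mmu-miR-199a-3p (Dnm3os): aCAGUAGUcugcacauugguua
mmu-miR-214-3p (Dnm3os): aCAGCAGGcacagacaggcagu
mmu-miR-370-3p (Rian): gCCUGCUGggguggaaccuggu
mmu-miR-341-3p (Rian): uCGGUCGAucggucggucggu
mmu-miR-770-5p (Meg3): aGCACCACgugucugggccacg
mmu-miR-100-5p (Mir100hg): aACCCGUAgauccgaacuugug
mmu-miR-125b-5p (Mir100hg): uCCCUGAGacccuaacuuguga
mmu-miR-22-3p (Mir22hg): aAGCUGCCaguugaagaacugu
The libraries held poly(A)-selected fragments, so the mature microRNAs were not measured, and only the host transcripts have levels here.

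The members together took 72354 counts with vehicle, 67414 with Osm and 64346 with TGF-beta1, which is 0.395%, 0.389% and 0.347% of each library and 60.9%, 58.8% and 62% of all lncRNA counts. The share of the library was lowest with TGF-beta1, and the share of lncRNA counts was highest there. Malat1, a nuclear speckle RNA, held 28.3%, 27.2% and 22.9% of the members' counts. The 10 members with most counts held 62%, 60.6% and 60.5%. A typical member was far lower, with a median count of 350, 337 and 294. Per length, taken as the mean CPM per kilobase over the 3 libraries, Malat1 stood at 142. The next 3 were ENSMUSG00000120849, a gene of 297 bases inside Mmp14 on the same strand, at 66.9, Gm10076 at 52.3, and Norad, an abundant RNA that binds Pumilio proteins, at 49.9. Gm10076 is uncertain as a gene of its own, since 69.9% of its windows of 50 bases also occur in the ribosomal protein gene Rpl41. In Norad 39.5% of windows also occur in Gm7292. Gm41724, opposite Lox, followed at 45.7 and AI506816 at 44.

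With Osm the levels of the 84 members centred on those with vehicle. The median log2 ratio of CPM was 0.01, with quartiles of -0.18 and 0.14, against 0.00 over all 13712 genes tested, which are those that reached 1 CPM in any library. The ratio lay above 0 for 42 members and below 0 for the other 42, and 58 members (69%) stayed within 1.2-fold of vehicle, against 77.8% of all genes tested and 92.5% of the 9131 genes of any biotype that reach the members' count minimum. A gene was counted as higher or lower when it differed at least 2-fold and the exact 95% interval of its count ratio excluded 1. That interval covers counting error only. By this rule 0 members were higher with Osm, against 0.948% of all genes tested, and 1 was lower (1.19%), against 0.664%. The 1 lower member was Gm32255. Among the genes at the count minimum, 0.0767% were higher and 0.0657% lower. At 1.5-fold 1 member was higher with Osm (1.19%), against 2.09% of all genes tested and 0.285% of genes at the count minimum, and 1 was lower, against 1.68% and 0.329%. With 1 member on each side, nothing is read from these shares.

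With TGF-beta1 more of the members differed from vehicle, and more of them were lower than higher. The median log2 ratio over vehicle was -0.21, with quartiles of -0.52 and 0.20, against 0.02 over all genes that reach the same count minimum. The ratio was above 0 for 31 members and below 0 for 53. At 2-fold, 2 members were higher (2.38%), against 2.2% of all genes tested and 0.953% of genes at the count minimum. Another 8 were lower (9.52%), against 4.89% and 2.42%. At 1.5-fold, 8 members were higher (9.52%), against 5.78% of all genes tested and 4.03% of genes at the count minimum, and 19 were lower (22.6%), against 9.84% and 6.64%. The share of lower members was thus above both backgrounds. The share of higher members at 2-fold, on 2 members, was close to that of all genes tested and above that of genes at the count minimum. At 1.5-fold the share of higher members was above both backgrounds. The 8 lower members were Gm11651, A730020M07Rik, Gm16567, BC037039, Neat1, 4930447F24Rik, Gm45472 and Gm47163. Gm11651, Gm16567, BC037039 and Gm45472 lie opposite a far more abundant protein-coding gene. Without the 19 members in that position, 4 of 65 members were lower and 2 higher, and the median was -0.14.

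**Figure D1:**
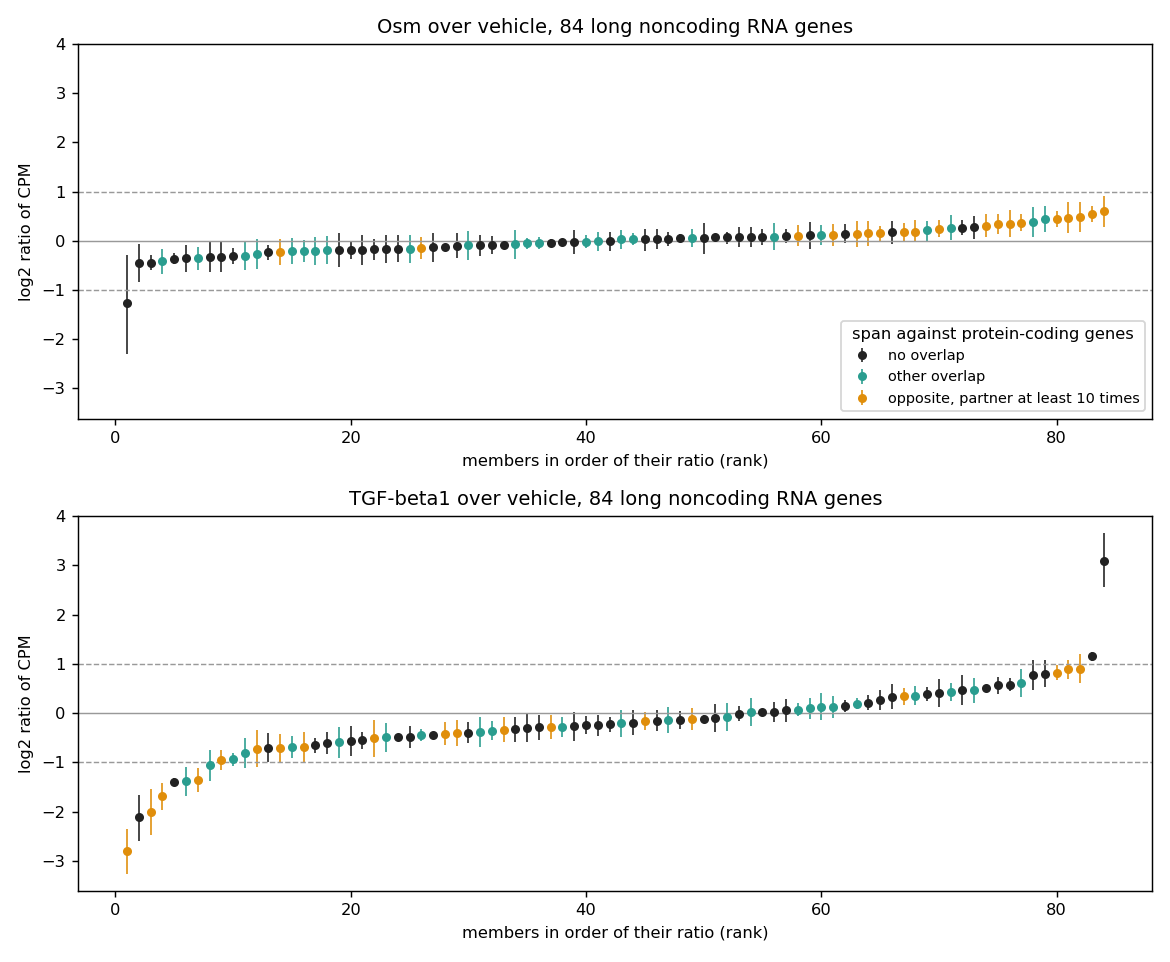
Log2 ratio of CPM over vehicle for each of the 84 long noncoding RNA genes, in order of the ratio, for Osm (top) and TGF-beta1 (bottom). Bars are exact 95% intervals of counting error, dashed lines mark 2-fold, and colours give the overlap with protein-coding genes. With Osm 69% of the members lie within 1.2-fold of vehicle, against 92.5% of all genes at the same count minimum, and with TGF-beta1 29.8% do, against 62.4%.

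Compared directly, Osm over TGF-beta1 gave a median log2 ratio of 0.23. At 2-fold, 11 members were higher with Osm (13.1%), against 5.16% of all genes tested and 2.37% of genes at the count minimum. Another 4 were lower (4.76%), against 2.38% and 1.11%. The 4 lower members were Gm32255, Rian, Gm38403 and Meg3. Of these Gm38403, at 7.74, 5.66 and 13.2 CPM (vehicle, Osm, TGF-beta1), was 2.33-fold lower with Osm than with TGF-beta1 (95% interval 1.84 to 2.98). The largest of the 11 higher ratios was 8.86-fold for Gm11651 (6.55 to 12.2). Leaving out the 19 members opposite a far more abundant gene took the 11 to 3.

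The 41 members that overlap no protein-coding gene are the ones whose counts have no overlapping coding gene to share. Their median log2 ratio was -0.08 with Osm and -0.13 with TGF-beta1. With TGF-beta1 2 of them were higher (4.88%), Gm32255 and Rian, against 2.2% of all genes tested and 0.953% of genes at the count minimum. Another 2 were lower (4.88%), A730020M07Rik and Neat1, against 4.89% and 2.42%. The lower share, on 2 members, was thus close to that of all genes tested and above that of genes at the count minimum.

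Gm32255, an uncharacterised gene at chr10:67332189-67333537 on the minus strand, had the largest ratio of any member. Its counts were 33 with vehicle, 13 with Osm and 285 with TGF-beta1, or 1.8, 0.751 and 15.4 CPM. It reached the count minimum only through the TGF-beta1 library. The level with TGF-beta1 was 8.54-fold that with vehicle (95% interval 5.94 to 12.6). With Osm it was 2.4-fold lower than with vehicle (1.23 to 4.96), on few counts. The nearest protein-coding gene upstream, Egr2, an immediate early transcription factor gene that starts 37.8 kb away in the other direction, lay at 65.3, 66.5 and 66.3 CPM, within 1.2-fold of vehicle in both. A RefSeq promoter window under the symbol Gm32255 is printed because no other member differed so much. It runs from 250 bases before to 50 after the RefSeq start (chr10:67536131-67536430, minus strand, GRCm38.p6). That start differs from the counted gene's start by more than the shift between builds seen at Gm15270 and Gm38403, on either side of it. By this comparison it lies upstream of the counted gene, towards Egr2. The window is therefore not taken as the promoter of the counted gene.
Gm32255 promoter: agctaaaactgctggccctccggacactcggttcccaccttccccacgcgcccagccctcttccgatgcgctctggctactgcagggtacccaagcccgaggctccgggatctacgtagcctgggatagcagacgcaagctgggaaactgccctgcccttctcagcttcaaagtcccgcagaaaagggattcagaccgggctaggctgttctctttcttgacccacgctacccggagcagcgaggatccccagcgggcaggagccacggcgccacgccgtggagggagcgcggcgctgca
It holds no match on either strand to the AP-1 letters TGANTCA, the Stat letters TTCNNNGAA, the Smad palindrome GTCTAGAC or TATAAA, which says only that these letters are not in this window. Of all 32851 promoter windows in the table, 7.81%, 8.3%, 0.213% and 13.6% hold them.

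A730020M07Rik, also uncharacterised, lies at chr3:121428585-121437134 on the minus strand. Its counts were 215, 162 and 50 (vehicle, Osm, TGF-beta1), or 11.7, 9.36 and 2.7 CPM. It was 4.35-fold lower with TGF-beta1 than with vehicle (95% interval 3.18 to 6.04), and lowest in that library. The nearest protein-coding gene, 4930432M17Rik, lies 27277 bases away and had 0 counts in every library. F3, which encodes tissue factor and lies farther off at 80.1 kb, was at 451, 420 and 202 CPM, a log2 ratio of -1.16 with TGF-beta1. A730020M07Rik and F3 were thus lowest in the same library, and a link between them was not tested. The RefSeq window of A730020M07Rik holds the letters TGANTCA only as TGAATCA. It is 1 of 3 with these letters among 45 members with a window, beside Morrbid (TGAGTCA) and 3300005D01Rik (TGACTCA). Of all promoter windows, 7.81% hold them, so nothing is read from this match.

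Neat1 and Malat1 are neighbours, 22 kb apart on chromosome 19, and both are retained in the nucleus. Malat1 and the long form of Neat1 end in a triple helix in place of a poly(A) tail. The libraries were poly(A)-selected, so the counts below need not follow the total level of either RNA. Neat1 (chr19:5874736-5895898) stood at 227, 209 and 85.5 CPM. It was 2.65-fold lower with TGF-beta1 than with vehicle (95% interval 2.5 to 2.81), and only 1.09-fold lower with Osm (1.04 to 1.14). Malat1 (chr19:5845717-5852704) stood at 1116, 1057 and 795 CPM, 1.4-fold lower with TGF-beta1 (1.37 to 1.43) and 1.06-fold lower with Osm. Both were lowest with TGF-beta1, and the ratio was larger for Neat1. The protein-coding neighbour Frmd8 differed less, at 62.8, 71.7 and 58.8 CPM. A list of 20 nuclear and genome-organising lncRNAs had 11 genes tested, and with TGF-beta1 all 11 had ratios below 0 with a median of -0.32. The intervals of Jpx, Ftx, Kcnq1ot1 and Dubr with TGF-beta1 hold 1. At 2-fold 2 of the 11 were lower, Neat1 and Lncpint, where 4.89% of all genes tested were lower. Lncpint, a p53-linked RNA, was at 2.4, 1.85 and 1.08 CPM, on only 44, 32 and 20 counts. The median of the 11 with Osm was -0.03. Norad was at 272, 267 and 201 CPM, 1.35-fold lower with TGF-beta1 (1.3 to 1.41). Firre, which tethers chromosome regions in the nucleus, was at 15.5, 15.3 and 12.4 CPM. Oip5os1, the mouse Cyrano RNA that promotes the decay of miR-7, was nearly level at 142, 148 and 130 CPM.

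**Figure D2:**
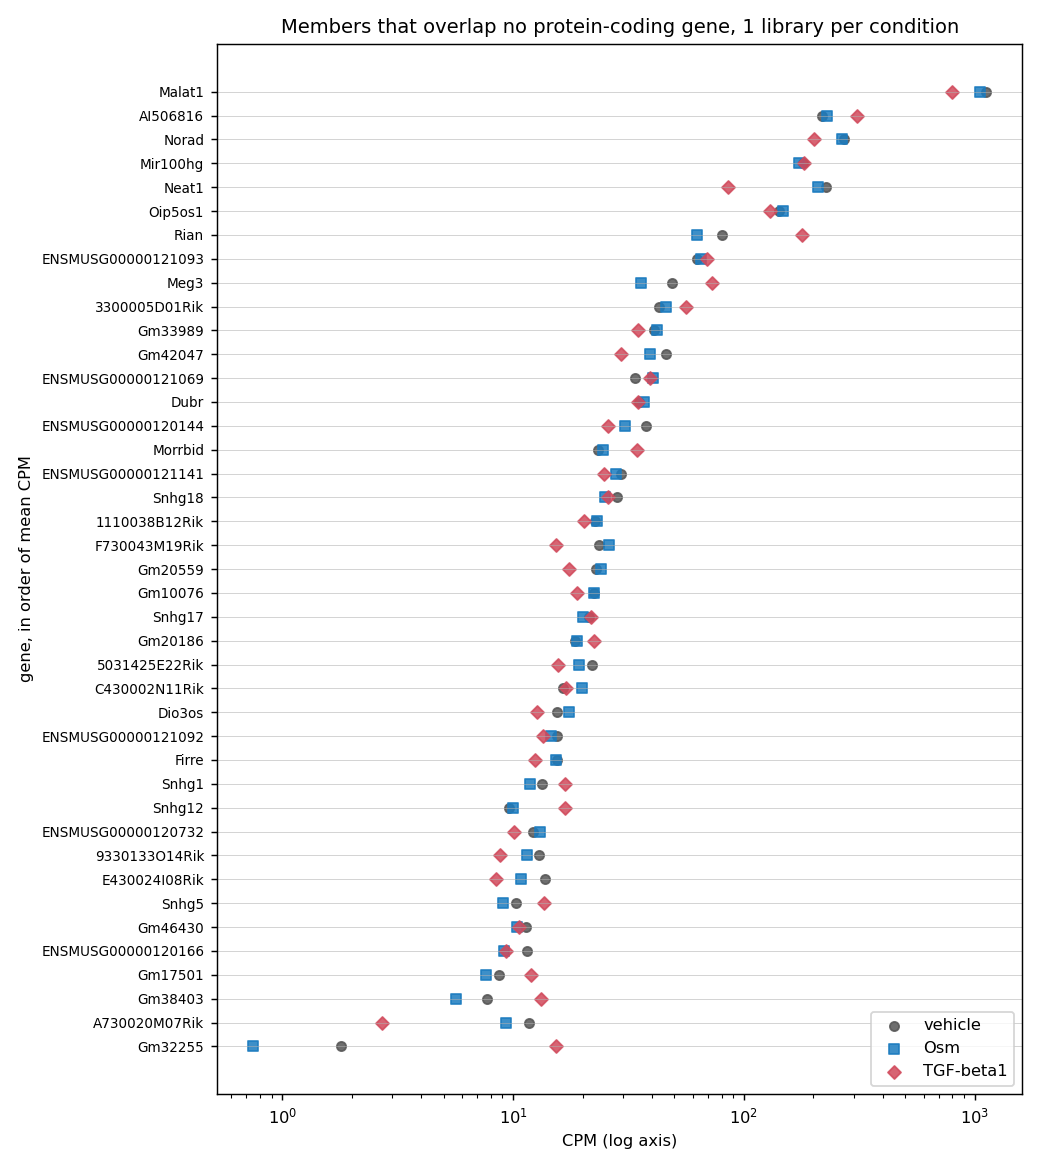
Level in CPM (log axis) of the 41 long noncoding RNA genes that overlap no protein-coding gene, in each of the 3 libraries. Points for most genes lie close together. Gm32255, Rian, A730020M07Rik and Neat1 have the TGF-beta1 point set apart from the other two.

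Meg3 and Rian are transcribed from the maternal copy of the imprinted Dlk1-Dio3 region on chromosome 12, and are thought to belong to a single long transcription unit. Meg3 (chr12:109506879-109538165, plus strand) was at 48.9, 35.9 and 73 CPM. It was 1.49-fold higher with TGF-beta1 than with vehicle (95% interval 1.37 to 1.63) and 1.36-fold lower with Osm (1.23 to 1.51). Rian (chr12:109570242-109628150, plus strand), which starts 32.1 kb beyond the end of Meg3, was at 80.1, 62.5 and 178 CPM. It was 2.22-fold higher with TGF-beta1 (2.09 to 2.36) and 1.28-fold lower with Osm (1.18 to 1.39). Both were thus highest in the TGF-beta1 library and lowest in the Osm library. Mirg, the next gene of the same strand, did not reach the member rule, with 34, 40 and 39 counts, and its intervals over vehicle hold 1. The paternally expressed Dlk1 had 81, 98 and 68 counts and Rtl1 at most 2 counts in any library. Dio3os, at the far end of the region, was at 15.5, 17.5 and 12.7 CPM, 1.22-fold lower with TGF-beta1 (1.02 to 1.46). The Dio3 gene that it starts beside, for the enzyme that inactivates thyroid hormone, was at 47.4, 65.1 and 54.4 CPM. Of the 11 imprinted lncRNAs listed, 8 were tested. With TGF-beta1 1 was higher, Rian, and 0 lower, where 2.2% of all genes tested were higher and 4.89% lower. With Osm 1 was lower, H19, where 0.664% of all genes tested were lower. H19 is no member, at 49, 18 and 42 counts. Peg13, inside Trappc9 on the same strand, was at 28.5, 29.7 and 22.3 CPM.

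The snoRNA hosts among the members were 12 in number. With TGF-beta1 their median log2 ratio was 0.37, with 10 above 0 and 2 below. The 95% interval lay above 1 for 8 hosts and below 1 for 0, against 3026 above and 2569 below among the 9131 genes at the count minimum. Only Rian passed 2-fold. Snhg12 and Snhg5 are among the members that passed the count minimum with TGF-beta1 alone. Without Rian, whose snoRNAs belong to the imprinted cluster, the median over the other 11 was 0.33, with 9 above 0. Over all 84 members, by comparison, 53 were below 0. With Osm the median of the 12 was -0.07. Snhg12 was at 9.65, 9.99 and 16.8 CPM, 1.74-fold higher with TGF-beta1 (1.44 to 2.1). AI506816 was at 218, 228 and 310 CPM, 1.43-fold higher with TGF-beta1 (1.37 to 1.49). Gas5, a growth-arrest RNA whose introns encode box C/D snoRNAs, was at 66.1, 63.8 and 75.5 CPM, 1.14-fold higher with TGF-beta1 (1.06 to 1.23). Zfas1 differed with Osm instead, at 16.7, 12.5 and 18.1 CPM, and was 1.33-fold lower there (1.12 to 1.59). Over a fixed list of 21 host genes, 17 were tested, and with TGF-beta1 13 were above 0 with a median of 0.19 and 0 passed 2-fold in either direction.

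Transcripts of snoRNA hosts typically start with a run of pyrimidines, the 5′ terminal oligopyrimidine (TOP) tract that ties translation to growth signals. RefSeq promoter windows were found for 11 of the 12 hosts. A run of at least 6 C or T bases within 20 bases of any start was present in 10 of the 11 hosts, which have 14 starts. Of all promoter windows, each counted alone, 37.5% held such a run, so the 2 shares differ in unit. A run need not begin at the start, and that of Snhg5 begins 7 bases after it, so TOP tracts were not measured. The 2 hosts with log2 ratios below 0 with TGF-beta1 are not printed. They were Snhg18, at -0.13 with a run of 10, and 1110038B12Rik, at -0.15 with a run of 7. Whether runs and ratios go together was not tested. The windows below (40 bases around the start, GRCm38.p6, capitals marking the longest run) are of 5 other hosts, with runs of 9, 9, 9, 7 and 6 bases. Their log2 ratios with TGF-beta1 were 0.80, 0.33, 0.42, 0.40 and 0.19 in the order printed.
Snhg12 (chr4:132308658-132308697, plus strand): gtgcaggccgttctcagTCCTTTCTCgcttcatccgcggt
Snhg1 (chr19:8723467-8723506, plus strand): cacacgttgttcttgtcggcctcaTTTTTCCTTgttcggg
2410006H16Rik (chr11:62602857-62602896, plus strand): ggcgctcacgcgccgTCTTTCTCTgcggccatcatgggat
Snhg5 (chr9:88522878-88522917, minus strand): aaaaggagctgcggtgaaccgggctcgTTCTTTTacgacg
Gas5 (chr1:161035146-161035185, plus strand): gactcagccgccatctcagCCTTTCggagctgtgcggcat
A run of at least 8 was less frequent. It was present at any start of 4 of the 11 hosts and of 10 of the 34 other members with a window, and in 16% of all promoter windows. A match of letters is a description and no measure of translation.

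The 6 microRNA hosts had a median log2 ratio of 0.05 with TGF-beta1 and -0.03 with Osm, and they went separate ways. Dnm3os (chr1:162045192-162053119, plus strand), the source of miR-199a and miR-214 shown above, was at 73.4, 75.1 and 38.2 CPM. It was 1.92-fold lower with TGF-beta1 than with vehicle (95% interval 1.75 to 2.11), and within 1.2-fold with Osm. It lies wholly within Dnm3, a dynamin gene on the other strand, which had only 55, 47 and 49 counts, far fewer than the 1346, 1301 and 709 of Dnm3os. Mir100hg, the host of miR-100 and miR-125b, was level at 180, 174 and 182 CPM. Mir22hg was level too, at 50.4, 49.9 and 52.9 CPM. The intervals of Rian, Meg3 and Dio3os with TGF-beta1, given above, exclude 1.

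**Figure D3:**
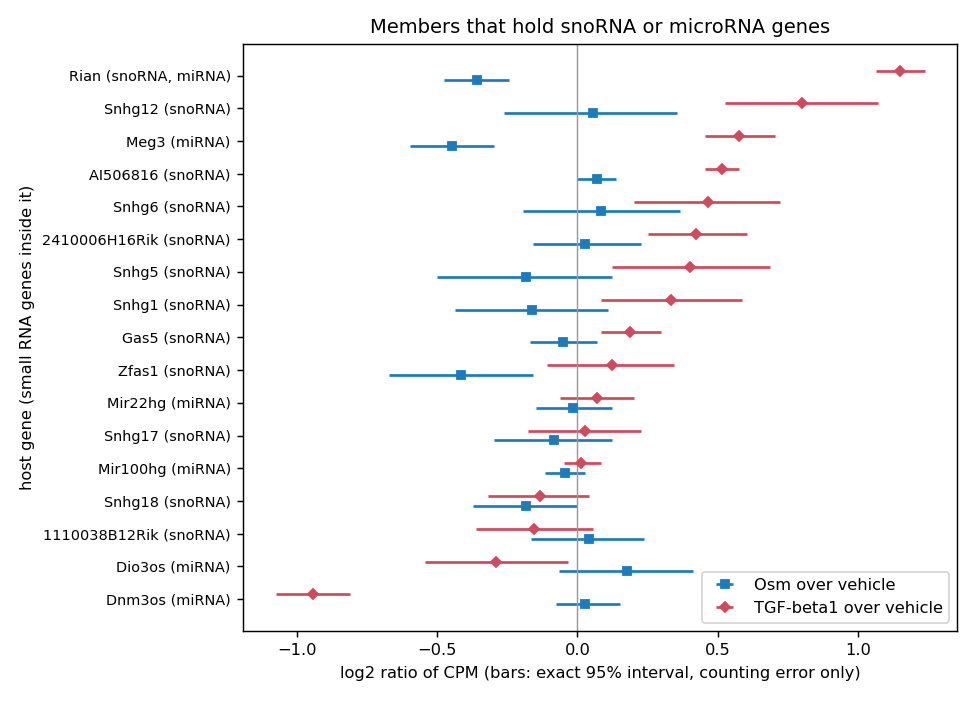
Log2 ratio of CPM over vehicle for the members that hold snoRNA or microRNA genes, with exact 95% intervals of counting error, for Osm (squares) and TGF-beta1 (diamonds). The snoRNA hosts lie mostly to the right of 0 with TGF-beta1, and Dnm3os is the lowest at -0.94.

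A common pattern was seen in the genes opposite a far more abundant protein-coding gene. Of the 37 members on the strand opposite a coding gene, 19 faced one with at least 10 times their counts, both summed over the 3 libraries, and 18 did not. In single libraries the ratio could fall under 10, as for Gm48529 and Rab10os. Where a member overlapped several coding genes, the one with most counts was taken as its partner, as for BC037039, which overlaps 23. The 19 included Apol7d opposite Fn1 (fibronectin), Gm9913 opposite Fbn1 (fibrillin), Gm41724 opposite Lox (lysyl oxidase) and Gm48529 opposite Tagln (the actin-binding transgelin). D030025P21Rik lay opposite Ltbp2, which is only by name a latent TGF-beta binding protein here. Also among the 19 were Gm45472 opposite Mmp2 (a gelatinase), Gm11651 opposite Ace (angiotensin-converting enzyme) and Gm16567 opposite C1s1 (a complement protease). Gm15270 lay opposite Ccn2 and BC037039 opposite Pcdhgc3. With TGF-beta1 the ratios of these 19 members lined up with those of the genes opposite (Pearson r = 0.97 over 19 pairs in the same libraries, a description), and 8 of the genes opposite passed 1.5-fold, all 8 in the direction of the member. With Osm r was 0.36, 8 of the 19 pairs had the same direction, and 0 of the genes opposite passed 1.5-fold.

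With TGF-beta1 each of the 19 also had a lower ratio than its partner. The difference between the member's log2 ratio and the partner's with TGF-beta1 had a median of -0.64, with quartiles of -0.70 and -0.52, and was below 0 in 19 of 19. With Osm the same difference had a median of 0.29, with quartiles of 0.20 and 0.46, and was above 0 in 18 of 19. The exception was Gm26586, opposite Tpm4. The partners themselves had medians of 0.02 with TGF-beta1 and -0.03 with Osm.

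**Figure D4:**
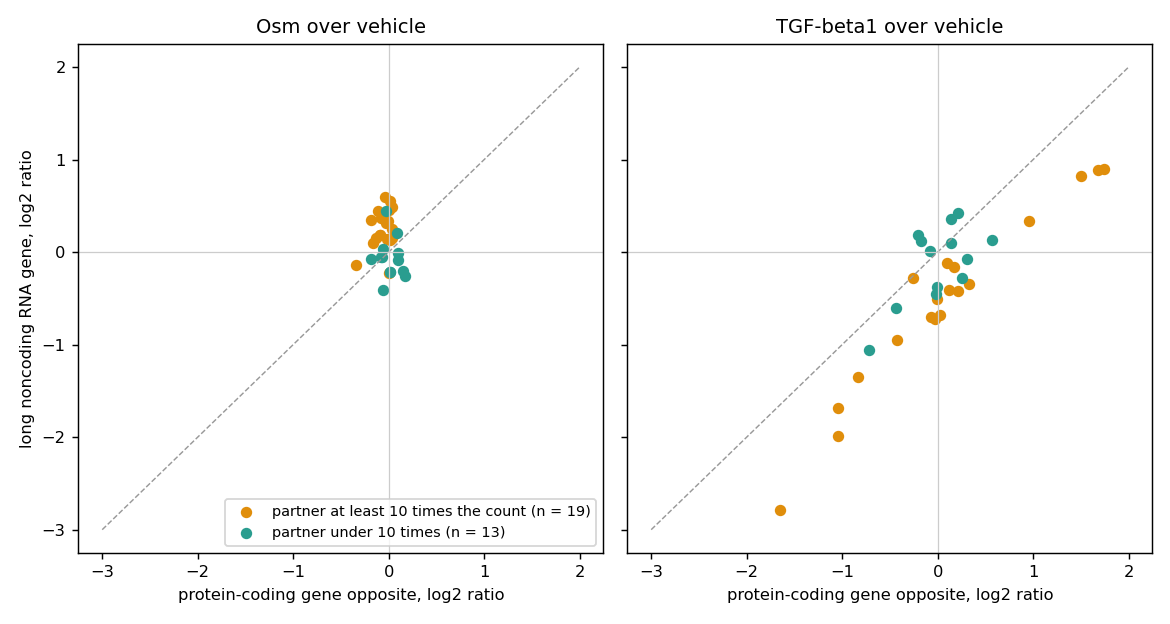
Log2 ratio over vehicle of each member against that of the protein-coding gene on the opposite strand, for the 32 pairs whose coding gene reached 200 counts, with Osm (left) and TGF-beta1 (right). The dashed line marks equal ratios. With TGF-beta1 all 19 members with a partner of at least 10 times their count lie below the line, and with Osm 18 of the 19 lie above it.

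Expressed as a percent of the partner's count, the member was highest in the Osm library for 18 of the 19 pairs and lowest in the TGF-beta1 library for 19 of 19. The median percent was 2.41 with vehicle, 2.94 with Osm and 1.79 with TGF-beta1. Summed over the 19 pairs, the members had 6559 counts against 663121 of their partners with vehicle (0.989%), 7420 against 609434 with Osm (1.22%), and 5640 against 723964 with TGF-beta1 (0.779%). The libraries thus had the same order, Osm above vehicle above TGF-beta1, in most of these pairs.

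Single pairs show both movements. Gm11651 had 331, 397 and 48 counts and Ace 26160, 24505 and 8413, so the member was 1.27%, 1.62% and 0.571% of Ace. Its log2 ratio with TGF-beta1 was -2.79 and that of Ace was -1.65. In the other direction, Gm41724 had 352, 357 and 658 counts and Lox 49083, 41458 and 158628, which is 0.717%, 0.861% and 0.415%. The member was higher with TGF-beta1 by a log2 ratio of 0.89 and Lox by 1.68. Gm48529 had 597, 626 and 1068 counts against 5859, 5046 and 16761 of Tagln, which is 10.2%, 12.4% and 6.37%. D030025P21Rik had log2 ratios with TGF-beta1 of 0.90 against 1.74 for Ltbp2. A coding gene could be nearly level while the member differed. Gm49227, opposite the amyloid precursor gene App, had 163, 216 and 100 counts while App had 22262, 21501 and 22106.

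**Figure D5:**
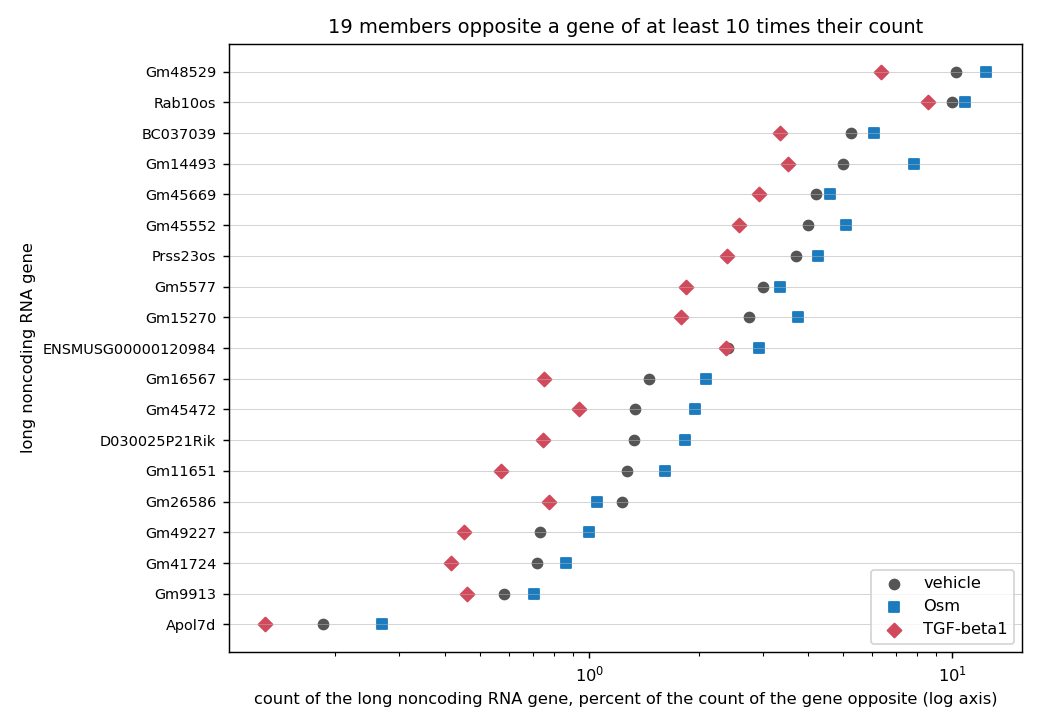
Count of each of the 19 long noncoding RNA genes as a percent of the count of the protein-coding gene on the opposite strand (log axis), in the 3 libraries. The TGF-beta1 point is the lowest in all 19 pairs and the Osm point the highest in 18, whatever the size of the percent, from 0.185 to 10.2 with vehicle.

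The members with the largest ratios with Osm came largely from this class. Gm14493, opposite Mid1ip1, was at 7.85, 11.9 and 5.5 CPM, 1.52-fold higher with Osm than with vehicle (95% interval 1.22 to 1.89), the only member past 1.5-fold upwards, and it passed the count minimum through that library alone. Mid1ip1 had 2873, 2633 and 2888 counts. Apol7d followed at 30.9, 45.2 and 15.9 CPM, while Fn1 had 306727, 290935 and 230069 counts. Next came Gm49227, D030025P21Rik and Gm45472. Gm11175, opposite the AP-1 gene Jund, fell just under the 10-fold split and had the same order, at 10.7%, 14.9% and 8.3% of Jund.

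The pattern was looked for in lncRNA genes below the members' minimum, which the rule did not use. Of those that reached 1 CPM in any library, 432 lay opposite a coding gene of at least 10 times their counts. Their median log2 ratio was 0.28 with Osm, with 306 above 0, and -0.40 with TGF-beta1, with 331 below 0. Over these 432 pairs r with the gene opposite was 0.13 with Osm and 0.48 with TGF-beta1, lower than in the 19 members. The 109 opposite a gene of under 10 times their counts had medians of -0.01 and -0.13, and the 247 that overlapped no coding gene -0.07 and -0.23. The 18 members opposite a gene of under 10 times their counts had medians of -0.08 and -0.17, and their difference from the partner had medians of -0.05 and -0.10. These genes come from the same 3 libraries, so they are no replicate of the libraries. In 28 of the 35 opposite-strand members found among GENCODE M21 transcripts, at least 1 window of 50 bases was antisense to the partner's transcripts. In 8 at least 50% of windows were. Those with 0% included Gm41724 opposite Lox and Gm45472 opposite Mmp2, both among the 19. Whether the counts of these 19 members come from their own transcripts or from those of the gene opposite was not tested, and the share of counts assigned to the opposite strand as a property of each library was not tested either.

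Among the 18 with a less abundant partner, 2 were at least 2-fold lower with TGF-beta1 (11.1%), against 4.89% of all genes tested and 2.42% of genes at the count minimum. The first, 4930447F24Rik, opposite the neuronal gene Bsn, was at 19.1, 15 and 7.34 CPM, 2.6-fold lower (95% interval 2.13 to 3.2), while Bsn had 36, 19 and 11 counts. The second, Gm47163, overlaps the adaptor gene Shc2 by 63 bases and was at 14.5, 12.5 and 6.9 CPM, 2.09-fold lower (1.69 to 2.61). Shc2 had 2043, 1944 and 1258 counts and so was lowest in the same library. ENSMUSG00000121137, across Slc7a15, which had at most 2 counts, was at 13.3, 10.7 and 7.6 CPM, 1.75-fold lower (1.42 to 2.17).

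Of the 6 members that overlap a coding gene on the same strand, none passed 2-fold. ENSMUSG00000120849 had a log2 ratio of -0.69 with TGF-beta1 and Mmp14, the membrane-type metalloproteinase gene around it, -0.60. The highest was 6530402F18Rik, in Ntng2, at 8.73, 11.3 and 13.3 CPM, 1.53-fold higher with TGF-beta1 (1.25 to 1.87). Of the 8 that start head to head with a coding gene, all 8 lay within 1.2-fold of vehicle with Osm, as did 92.5% of all genes at the count minimum. With TGF-beta1 Gm17501 had a log2 ratio of 0.46 beside Ccn1, a matrix-associated growth regulator gene, with 0.40, and Snhg1 0.33 beside the amino acid transporter gene Slc3a2 with 0.38. F730043M19Rik had -0.61 beside Atxn7l1 with -0.40. With TGF-beta1 6 of the 8 pairs had the same direction. Dio3os and Dio3, described above, differed in sign at -0.29 and 0.20. So did Snhg18 and Sema5a at -0.13 and 0.11, where both intervals hold 1.

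Morrbid, known in myeloid cells for holding down the proapoptotic gene Bcl2l11, was at 23.3, 24.5 and 34.4 CPM, 1.48-fold higher with TGF-beta1 (1.3 to 1.67). Bcl2l11, 15.8 kb away, had 122, 88 and 57 counts, a log2 ratio of -1.11 with TGF-beta1. The lncRNA was thus highest and the coding gene lowest in the same library, which no replicate checks.

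In the lists of lncRNA names for the other roles few genes passed 2-fold, and the p53, mesenchyme and cytokine lists all hold Neat1. With Osm 0.664% of all genes tested were lower. The microRNA host list had 12 tested, with 1 higher with TGF-beta1, Rian, and 1 lower with Osm, H19. The p53 and growth-linked list had 8 tested, with 3 lower with TGF-beta1, Neat1, Lncpint and Trp53cor1, and 0 higher. Of all genes tested 4.89% were lower and 2.2% higher. Trp53cor1, which is no member, had only 22, 21 and 7 counts (vehicle, Osm, TGF-beta1), and the counts of Lncpint, given above, are few too. The 14 tested of the mesenchyme and fibrosis list had 1 lower, Neat1, and a median of -0.23, and H19 was lower with Osm. Of the 6 tested of the cytokine and immune-response list, 1 was lower with TGF-beta1, again Neat1, and 0 with Osm. The Hox cluster list had 4 genes tested and 0 members. Several much-studied lncRNAs stayed below the minimum, with Pvt1 at 178, 132 and 153 counts, Kcnq1ot1 at 139, 126 and 128, Mir99ahg at 62, 66 and 85 and Xist at most 6. Tug1 is listed as protein coding in the table and so is no member.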

How the data were processed

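RNA sequencing of 3 libraries was analysed, grouped by title and treatment label. Per the labels' protocols, RNA was selected with poly-T beads and copied with random hexamers, and library types with and without strand information are both described. Per the submitters' processing notes, the tools were TopHat2, HISAT, HISAT2 and CASAVA (no versions) and the build mm39. The annotation release and read counter were not given in the sources used here. What the authors deposited are whole-number read counts per gene, used unchanged, and FPKM values, used only as an alternative. The authors' FPKM were found to be count over length over a scaled library size.

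Counts were scaled to CPM with TMM factors (edgeR 4.0.16, R 4.3.3; 1.00001, 0.999624 and 1.00037 for vehicle, Osm and TGF-beta1) over the 13712 genes that reached 1 CPM in any library. Log2 ratios used a prior count of 0.5. Fold changes are ratios of CPM with exact 95% conditional binomial intervals, which cover counting error only, since reads carry no molecular identifiers. The calling script was tested on simulated data. A count of 0 allows up to 3 counts, or 0.164, 0.173 and 0.162 CPM. DESeq2 1.42.0 gave other size factors. Other steps used Python 3.11.15. Overlaps come from the table's coordinates, promoter and microRNA sequences from RefSeq (GRCm38.p6), and windows of 50 bases from GENCODE M21 transcripts. Promoter windows were matched by symbol, so a RefSeq start need not be that of the counted gene. The members and the gene lists were chosen with earlier results of these data known. The genes named were the 10 highest and 10 lowest ratios per comparison, those of highest level per length, up to 4 per list, a fixed set and the genes beside them, and not all are printed; some are not reported here. The split of opposite-strand members at 10 times their counts was chosen after seeing the data.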

Additional observations from a re-analysis of the deposited data

How the results depend on the processing

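With 1 library per condition the depth limits only counting error, and spread between cultures is unknown. Scaling by DESeq2 size factors or by the total alone, the deposited FPKM, a prior count of 2 and no filter on low values left every count of members past 2-fold within 1.5 times its value. Of 1260 ratios of single members under these 5 settings, 1258 kept their call. The 2 others were Gm45552, Osm over TGF-beta1, at 0.99 with the FPKM and 1.00 with no filter. The choice of members mattered more. With a minimum of 500 counts (32 members), 0 were lower with Osm over vehicle, 1 higher and 3 lower with TGF-beta1 over vehicle, and 4 higher and 2 lower with Osm over TGF-beta1. With a minimum of 100 (183 members), 18 were lower with TGF-beta1 over vehicle and 23 higher with Osm over TGF-beta1. Among the 41 members without overlap these counts were 2 and 2. Without the 19 members opposite a gene of at least 10 times their counts, an alternative chosen after seeing the data, they were 4 and 3. These settings change which genes are counted. No paired analysis was possible because there was 1 library per condition.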
